A study of Mus musculus with 9 samples.

Results

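The 9 genes described here encode receptor chains, kinases and transcription factors through which interferons signal. Ifnar1 and Ifnar2 encode the receptor chains for interferon alpha and beta, Ifngr1 and Ifngr2 those for interferon gamma, Jak1, Jak2 and Tyk2 the kinases bound to these chains, and Stat2 and Stat3 a pair of the STAT transcription factors that the kinases activate. They were chosen by name, with earlier results of these data known. Each had 1 probe set on the array carrying its symbol alone, so all 9 were measured, of 19752 genes in all. They were followed in peritoneal macrophages of C57BL/6 males, 6 weeks old, obtained by lavage and sorted by flow cytometry. Mice were taken 2 h after a subcutaneous injection of 10000 U recombinant IFNa (interferon alpha, n = 4) or 8000 U recombinant IFNg (interferon gamma, n = 2), or were left untreated (n = 3). A vehicle injection is not among the samples, so effects of injection and of interferon cannot be told apart. Dose in units also differed between the interferons, so in the direct comparison type and dose of interferon cannot be told apart. IFNa replicate 1 is described only as IFN beside a title that says IFNa. The sort markers were labelled F4/80+ ICAM2+ for both injected groups and F4/80+ for the untreated one, whereas the series' own design text gives ICAM for the cells in general. If the labels hold, effects of the sort and of treatment cannot be told apart in comparisons with untreated cells. The labels number the replicates but do not say that each came from a separate mouse, so the p-values measure the spread between these samples.

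In textbook form, IFNAR1 carries TYK2 and IFNAR2 carries JAK1, and ligand binding brings the chains together so that the kinases phosphorylate STAT proteins. STAT2 then joins another STAT and IRF9 in the complex ISGF3, which binds the interferon-stimulated response element (ISRE) of antiviral genes. IFNGR1 carries JAK1 and IFNGR2 carries JAK2, and this receptor acts through STAT dimers that bind the gamma-activated site (GAS). STAT3 is best known as the mediator of interleukin-6 and of interleukin-10, a brake on macrophage activation.

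Levels below are RMA intensities, the deposited array signal on a linear scale. They are compared between arrays for 1 gene at a time, since probe sets differ in brightness. Differences are on the log2 scale, with standard errors from a model fitted to all 19752 genes (limma), and a gene passed the test at a Benjamini-Hochberg adjusted p under 0.05 over all genes. On 2 of the arrays, IFNa replicate 4 and untreated replicate 1, intensities were less spread, with an upper to lower quartile ratio of log2 2.16 and 2.27, against 2.68 to 3.03 on the other arrays. All 9 genes had their lowest untreated value in untreated replicate 1, as did 85.7% of the 2987 genes at least as bright as the dimmest of the 9. Values without these arrays are therefore given for the 9 genes where they change a call, and as counts for the gene lists. The macrophage markers Adgre1 (F4/80) and Icam2 were present in every group. Mean intensities of Adgre1 were 8529 after IFNa, 8348 after IFNg and 8275 in untreated cells, and those of Icam2 were 2989, 3603 and 3504. Of 11 measured markers of large peritoneal macrophages, whose median difference was 0.04 after IFNa and 0.01 after IFNg, Gata6 and Mertk passed. Mertk, a receptor for the uptake of dying cells, rose after IFNa by 0.62 ± 0.13 (adjusted p = 0.0318). Gata6, the transcription factor of resident peritoneal macrophages, was lower after both treatments, by log2 1.05 ± 0.17 after IFNa (difference -1.05, adjusted p = 0.00997) and by 1.16 ± 0.21 after IFNg (difference -1.16, adjusted p = 0.0242). Of 6 B cell markers none passed the test, but their summed intensity was 2054 in IFNa replicate 2 and 598 to 1066 on the other 8 arrays. Among markers of lymphocytes, granulocytes, mast cells, stroma, red cells and platelets none passed, and of the list for monocytes, dendritic cells and small macrophages Plac8 passed after IFNa. The part of other cells in the results below was not tested.

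Stat2 rose after both interferons and Jak2 after IFNa. None of the 4 receptor genes, Jak1, Tyk2 or Stat3 passed the test in any comparison with all genes and all 9 arrays in the fit. With only the IFNa and untreated arrays fitted, the call of Jak2 was lost (adjusted p = 0.0677). Jak2 was also higher after IFNg, by log2 0.64 ± 0.27, but did not pass (adjusted p = 0.56). After IFNa, 2 of the 9 genes rose and none fell, where 1.79% of all genes rose and 0.856% fell. After IFNg, 1 of the 9 rose and none fell, where 1.24% of all genes rose and 0.111% fell (2.65% of all genes changed either way after IFNa and 1.35% after IFNg). In sorted but bulk samples such as these, a change in RNA per cell and a change in the mix of cells cannot be told apart. The median difference of the 9 genes was 0.02 after IFNa and 0.12 after IFNg, beside -0.02 and -0.06 over all genes.

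**Figure D1:**
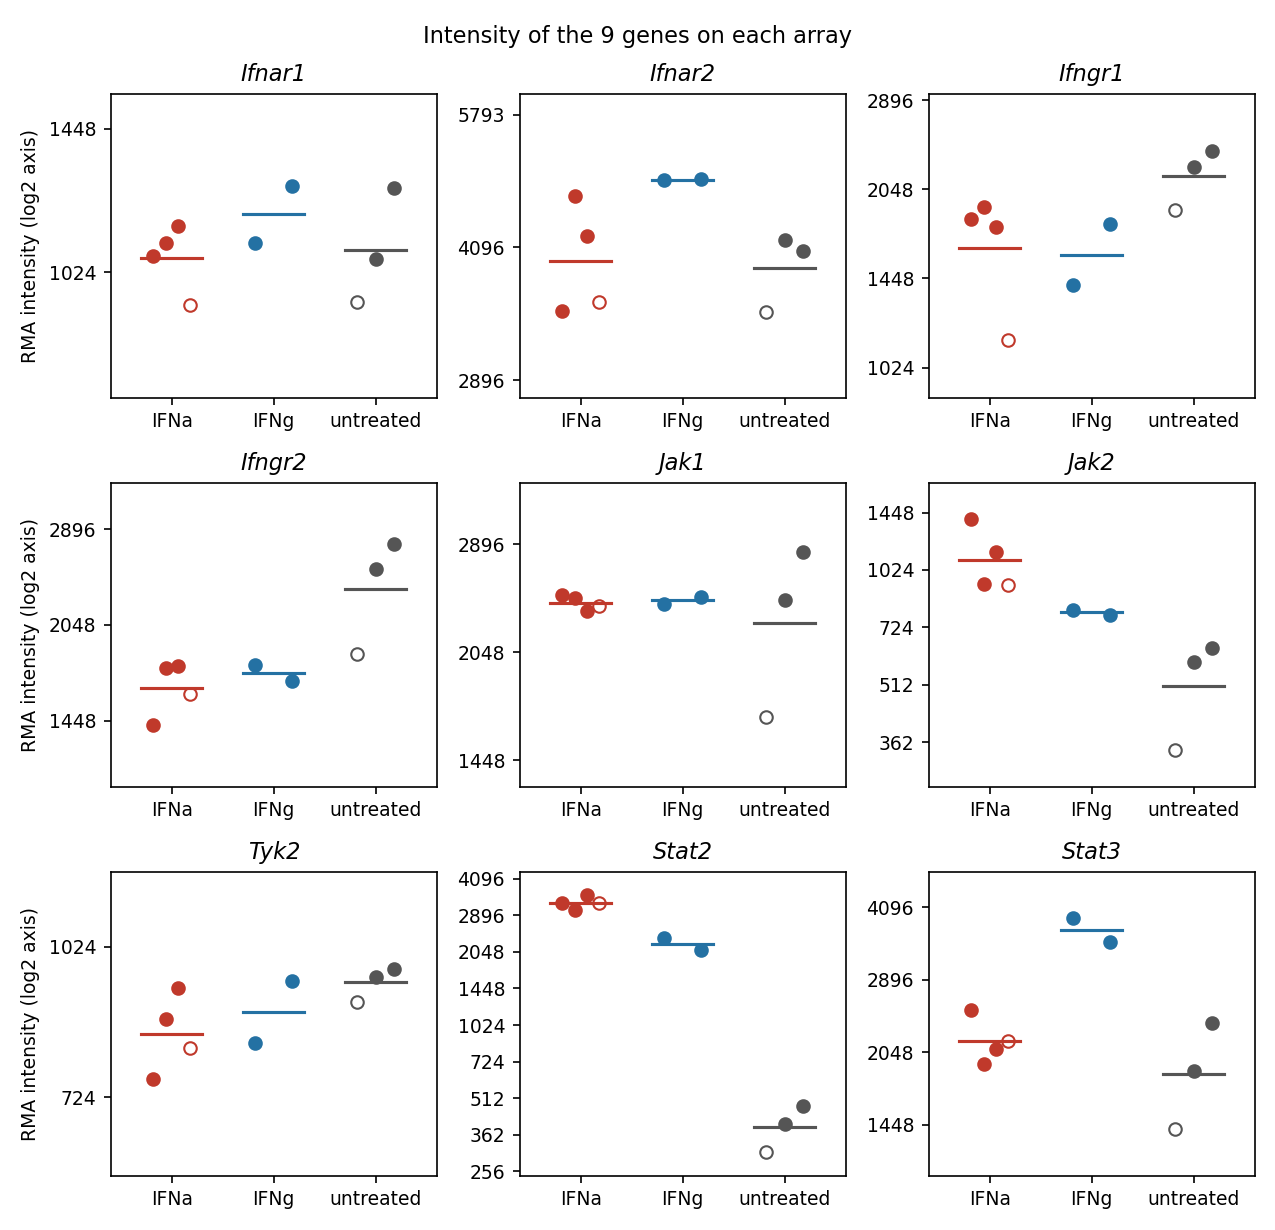
RMA intensity (log2 axis) of the 9 genes on each array, with groups IFNa (n = 4), IFNg (n = 2) and untreated (n = 3) from left to right in every panel. Each point is 1 array, open points are the 2 arrays of narrow intensity range (IFNa replicate 4 and untreated replicate 1), and lines are group means of log2 values. Stat2 separates both treated groups from untreated cells by the widest gap of the 9 panels, with 2083 or more after treatment and 477 or less without.

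Stat2 encodes the STAT that is specific to ISGF3 and is itself known as an interferon-stimulated gene. Its intensity (probe set 10367224) was 3253, 3039.9, 3510.1 and 3269 on the 4 IFNa arrays and 2331 and 2083 on the 2 IFNg arrays, against 307, 403 and 477 on the untreated arrays. Every IFNa array lay above both IFNg arrays, and every IFNg array lay far above the untreated ones. The mean was 3268 ± 192 after IFNa (SD, n = 4) and 2207 ± 175 after IFNg (SD, n = 2), against 395.6 ± 84.9 in untreated cells (SD, n = 3). The difference from untreated was log2 3.07 ± 0.15 after IFNa (8.38-fold, adjusted p = 3.68e-06) and 2.50 ± 0.18 after IFNg (5.66-fold, adjusted p = 1.21e-04). With each array left out in turn it stayed between 2.90 and 3.21 after IFNa and between 2.33 and 2.65 after IFNg, and passed each time. Directly compared, Stat2 was log2 0.57 ± 0.17 higher after IFNa than after IFNg, with a 95% interval of 0.18 to 0.95 and an adjusted p of 0.303, which did not pass. That difference was as large without both narrow arrays (0.57) and passed there (adjusted p = 0.0437), as it did after quantile normalization (0.66, adjusted p = 0.0269).

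The RefSeq promoter table (GRCm38.p6) held a window for all 9 genes, from 250 bases before to 50 after the transcript start that the table uses. That start is the first base of the annotated gene for 5 of the 9, among them Stat2, Jak2 and Ifnar2, and lies 54 to 183 bases inside the gene for Ifnar1, Jak1, Tyk2 and Stat3. Each window was searched on both strands for GAAA followed by any 2 bases and GAAA, a common core of the ISRE, and for TTCNNNGAA, the spacing of a GAS. In the table as a whole, 3.44% of 32851 windows held the first pattern and 8.30% the second, and no window of the 9 genes held both. Of the 9 genes Stat2 alone matched the ISRE pattern, as TTTCAGTTTC on the gene's strand, that is, with the pattern on the opposite strand, starting 222 bases before the gene's start. Ifnar2 matched the GAS pattern as TTCCTGGAA, 214 bases before its start, and Ifnar1 as TTCACGGAA, across the start that the table uses, which lies 183 bases inside the annotated gene. No match was found in the windows of Jak2, Stat3 or the other 4 genes. The 250 bases before the start are shown for Stat2 and Jak2, the genes that rose, and for Ifnar2, which has a match and did not pass the test; capitals mark the matched pattern.
Stat2 (chr10:128270248-128270497, forward strand): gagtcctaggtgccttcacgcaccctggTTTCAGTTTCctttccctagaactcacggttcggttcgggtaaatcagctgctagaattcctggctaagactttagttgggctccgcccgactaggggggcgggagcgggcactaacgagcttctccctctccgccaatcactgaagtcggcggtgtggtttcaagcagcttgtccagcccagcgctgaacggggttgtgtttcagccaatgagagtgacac
Jak2 (chr19:29251553-29251802, forward strand): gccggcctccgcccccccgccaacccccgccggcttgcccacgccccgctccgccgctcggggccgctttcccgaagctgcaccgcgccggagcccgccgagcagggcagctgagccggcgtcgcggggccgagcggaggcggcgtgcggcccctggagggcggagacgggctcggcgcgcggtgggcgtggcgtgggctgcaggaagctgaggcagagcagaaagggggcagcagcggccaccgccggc
Ifnar2 (chr16:91372533-91372782, forward strand): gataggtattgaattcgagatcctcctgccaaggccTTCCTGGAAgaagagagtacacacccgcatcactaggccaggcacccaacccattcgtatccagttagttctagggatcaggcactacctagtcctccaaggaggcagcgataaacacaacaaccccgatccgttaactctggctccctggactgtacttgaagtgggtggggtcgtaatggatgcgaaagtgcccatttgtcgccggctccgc
A match is a run of letters and says nothing of binding, and the lack of one covers only this window. The Jak2 stretch is 80.8% G and C, beside 56.8% for Stat2 and 54.0% for Ifnar2.

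Genes next to Stat2 were measured too. Apof, an apolipoprotein gene whose annotation overlaps the start of Stat2, differed from untreated by -0.08 ± 0.18 after IFNa and -0.05 ± 0.21 after IFNg. Il23a, the interleukin-23 subunit gene on the other side, differed by -0.02 ± 0.16 and -0.19 ± 0.19. Neither passed the test (adjusted p = 0.796 or more). Likeness to Stat2 was ranked without predicted genes named Gm or Rik and without olfactory, vomeronasal and taste receptor genes. Among the rest, the genes whose log2 values ran most closely with Stat2 over the 9 arrays were Parp14 (r = 0.999), Trim21 (0.996), Ifi205 (0.995) and Csf1 (0.994). Parp14 encodes an ADP-ribosyltransferase, Trim21 an antibody receptor of the cytosol and Csf1 the macrophage growth factor. These correlations describe 9 arrays in 3 groups and carry no test. Parp14 was 2.81 higher after IFNa and 2.24 higher after IFNg on the log2 scale, and Csf1 1.99 and 1.48.

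Stat3 was highest after IFNg. Its intensity (probe set 10391301) was 2506, 1937, 2086 and 2161 after IFNa and 3885 and 3471.5 after IFNg, against 1421, 1876 and 2354 in untreated cells. Both IFNg arrays lay above the other 7, whereas IFNa and untreated arrays overlapped. The mean was 2172 ± 241 after IFNa (SD, n = 4) and 3678 ± 292 after IFNg (SD, n = 2), against 1884 ± 467 in untreated cells (SD, n = 3). The difference from untreated was log2 0.23 ± 0.17 after IFNa (adjusted p = 0.767). After IFNg it was 0.99 ± 0.21 (1.99-fold, 95% interval 0.53 to 1.46), and the adjusted p of 0.0566 lay just outside the threshold. Without both narrow arrays the value was 0.81 and passed (adjusted p = 0.0428), and without untreated replicate 3 it was 1.17 and passed (0.0171), whereas without IFNg replicate 1 the adjusted p was 0.6. Stat3 was 0.76 ± 0.20 lower after IFNa than after IFNg (difference -0.76, adjusted p = 0.16), a difference that passed without both narrow arrays (-0.76, adjusted p = 0.0344).

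**Figure D2:**
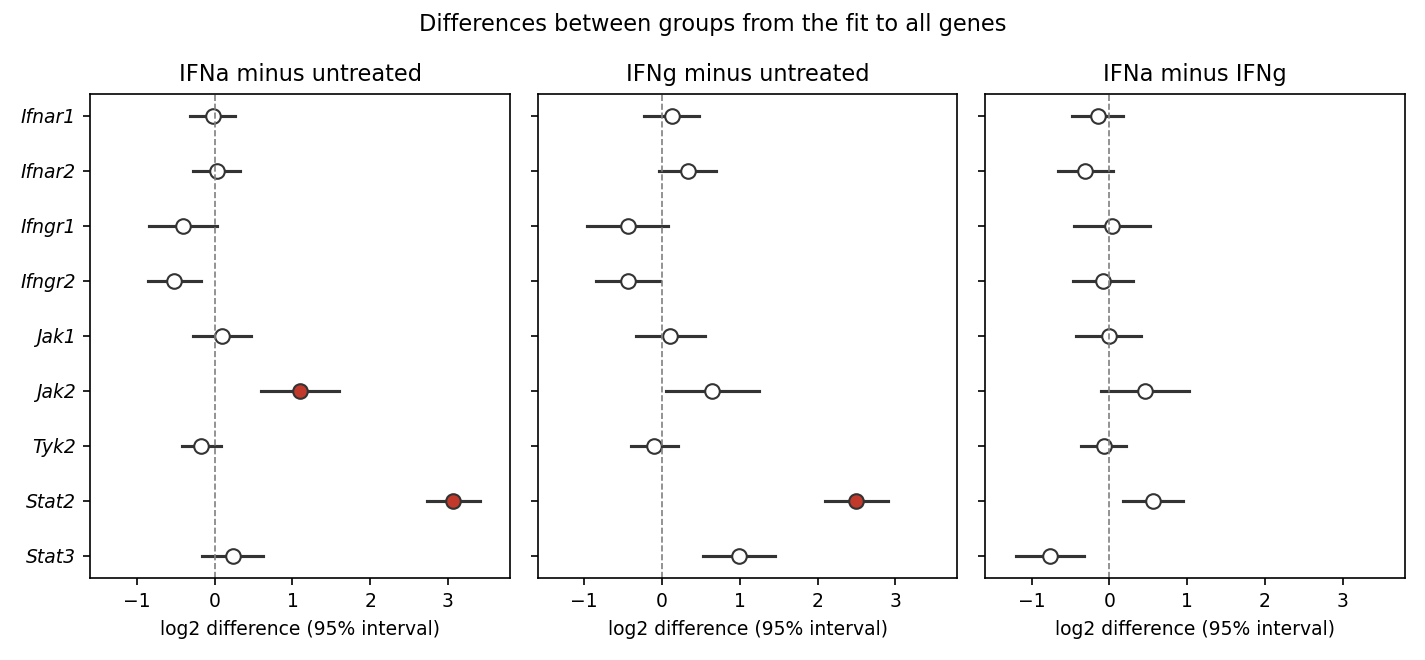
Log2 difference of each gene (points) with its 95% interval (lines) from the model fitted to all genes, for IFNa minus untreated, IFNg minus untreated and IFNa minus IFNg. Red points passed at an adjusted p under 0.05: Stat2 at 3.07 and 2.50, and Jak2 at 1.10 after IFNa. The intervals of both interferon gamma receptor genes lie mostly below 0 in the comparisons with untreated cells.

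Among the kinases Jak2, which is bound to IFNGR2, was the gene that rose, and it did so after IFNa. Its intensity (probe set 10462363) was 1389.8, 939, 1144 and 933 after IFNa and 803 and 782 after IFNg, against 346, 589 and 639 in untreated cells. The 3 groups did not overlap, with IFNa arrays highest and untreated arrays lowest. The mean was 1101 ± 216 after IFNa (SD, n = 4) and 792.3 ± 15.1 after IFNg (SD, n = 2), against 525 ± 157 in untreated cells (SD, n = 3). The difference from untreated was log2 1.10 ± 0.22 after IFNa (2.14-fold, adjusted p = 0.0318) and 0.64 ± 0.27 after IFNg (1.56-fold, adjusted p = 0.56, 95% interval 0.04 to 1.24), the second of which did not pass. The call after IFNa held in 3 of the 9 fits with an array left out, where the difference ranged from 0.82 to 1.27. It was lost without either IFNg array, IFNa replicate 1, 2 or 3, or untreated replicate 2 (adjusted p = 0.0544 to 0.0962). Of the untreated arrays, the lowest value was that of untreated replicate 1, and without both narrow arrays the difference was 0.90 (adjusted p = 0.016). Directly, IFNa exceeded IFNg by 0.46 ± 0.25 (95% interval -0.11 to 1.02, adjusted p = 0.802).

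Jak1 serves both receptors, and Tyk2 the interferon alpha receptor. Jak1 (probe set 10514668) had intensities of 2457, 2438, 2340.0 and 2371 after IFNa and 2388 and 2446.5 after IFNg, against 1662, 2417.5 and 2823.5 in untreated cells. The 6 treated arrays lay close together, inside the span of the untreated ones. The difference from untreated was 0.10 ± 0.17 after IFNa (95% interval -0.28 to 0.47) and 0.11 ± 0.20 after IFNg (-0.34 to 0.55), and neither passed (adjusted p = 0.936 and 0.87). Both turned negative after quantile normalization (-0.04 and -0.12). Tyk2 (probe set 10591446) had 756, 866, 929.9 and 810.2 after IFNa and 819.5 and 947 after IFNg, against 902, 954 and 973 in untreated cells, so the groups overlapped. Its differences were -0.17 ± 0.11 and -0.10 ± 0.14 (adjusted p = 0.716 and 0.833), with 95% intervals of -0.43 to 0.09 and -0.41 to 0.21. IFNa differed from IFNg by -0.01 ± 0.19 for Jak1 and -0.07 ± 0.13 for Tyk2 (adjusted p = 0.986 and 0.851).

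Jak2's neighbours gave no call. Rcl1, which acts in making ribosomal RNA, differed by -0.28 ± 0.22 after IFNa and 0.18 ± 0.27 after IFNg. Insl6, an insulin-like gene, differed by 0.14 ± 0.10 and 0.52 ± 0.12 (adjusted p = 0.738 and 0.094), at intensities of 54.3 to 86.0. Ranked among the same genes over the 9 arrays, Jak2 ran most closely with Psme4 (r = 0.983), which encodes a proteasome activator, and Mob1b (0.979), of the Hippo pathway. Next came the ubiquitin ligase gene Rnf139 (0.979) and D16Ertd472e (0.976), again without a test.

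Both chains of the interferon gamma receptor were lower after either interferon by less than the test could call. Ifngr1, the ligand-binding chain (probe set 10361897), had intensities of 1825, 1910.1, 1768 and 1138.5 after IFNa and 1410.3 and 1788 after IFNg, against 1894, 2233 and 2379 in untreated cells. The IFNg arrays lay below all untreated ones, and IFNa replicate 2 overlapped them. The mean was 1660.5 ± 353 after IFNa (SD, n = 4) and 1599 ± 267 after IFNg (SD, n = 2), against 2169 ± 249 in untreated cells (SD, n = 3). The difference was log2 -0.41 ± 0.19 after IFNa (95% interval -0.84 to 0.03, adjusted p = 0.471) and -0.44 ± 0.23 after IFNg (-0.96 to 0.08, adjusted p = 0.677). Ifngr2, the signal-transducing chain (probe set 10436865), had 1424, 1754.5, 1763 and 1594 after IFNa and 1772 and 1670.5 after IFNg, against 1841.5, 2508 and 2746 in untreated cells. All 6 treated arrays lay below all 3 untreated ones. The difference was -0.52 ± 0.15 after IFNa (95% interval -0.86 to -0.17, adjusted p = 0.147) and -0.44 ± 0.18 after IFNg (-0.85 to -0.03, adjusted p = 0.565). The lowest untreated value was again that of untreated replicate 1. Without both narrow arrays the difference after IFNa was -0.68 and passed (adjusted p = 0.0166), and after quantile normalization both did, at -0.65 after either interferon (adjusted p = 0.00535 and 0.025). In the direct comparison IFNa differed from IFNg by 0.04 ± 0.22 for Ifngr1 and -0.08 ± 0.17 for Ifngr2 (adjusted p = 0.954 and 0.872).

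The interferon alpha receptor genes showed smaller differences. Ifnar1 (probe set 10436849) had intensities of 1064, 1099, 1145 and 945 after IFNa and 1099 and 1261 after IFNg, against 952, 1057 and 1253 in untreated cells, and all groups overlapped. Its difference from untreated was -0.03 ± 0.13 after IFNa (95% interval -0.32 to 0.27, adjusted p = 0.981) and 0.12 ± 0.16 after IFNg (-0.23 to 0.47, adjusted p = 0.82). Ifnar2 (probe set 10436830) had 3466, 4690.3, 4217 and 3551 after IFNa and 4879.8 and 4899 after IFNg, against 3459, 4179.6 and 4059.6 in untreated cells. The IFNg arrays were the highest of the 9, and IFNa and untreated arrays overlapped. The difference was 0.02 ± 0.14 after IFNa (95% interval -0.28 to 0.33, adjusted p = 0.986) and 0.33 ± 0.16 after IFNg (-0.04 to 0.70, adjusted p = 0.657). Ifnar1, Ifnar2 and Ifngr2 lie in 1 cluster on mouse chromosome 16 together with Il10rb, which encodes a chain of the interleukin-10 receptor. Between the treatments, IFNa differed from IFNg by -0.15 ± 0.15 for Ifnar1 and -0.31 ± 0.16 for Ifnar2 (adjusted p = 0.802 and 0.801). Il10rb differed from untreated by -0.35 ± 0.18 after IFNa and -0.35 ± 0.21 after IFNg (adjusted p = 0.518 and 0.714).

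Counted by arrays that do not overlap, 2 of the 9 genes were higher after IFNa on every array, Stat2 and Jak2, and 1 was lower, Ifngr2, where 3.68% and 6.75% of all genes were (10.4% either way). After IFNg, 4 were higher (Ifnar2, Jak2, Stat2 and Stat3) and 2 lower (Ifngr1 and Ifngr2), where 12.3% and 15.5% of all genes were (27.8% either way). Between the treatments, Stat2 and Jak2 were higher on every IFNa array than on both IFNg arrays, and Ifnar2 and Stat3 were lower, where 12.8% and 15.6% of all genes were (28.4% either way). None of the 9 genes passed the limma test between IFNa and IFNg, where 0.977% of all genes passed (0.44% higher and 0.537% lower after IFNa). In that comparison 2 of the 9, Stat2 and Stat3, had an unadjusted p under 0.05, as did 7.07% of all genes. Against untreated, 3 of the 9 had one after IFNa and 4 after IFNg, where 11.9% and 8.23% of all genes did. Both comparisons with untreated cells use the same 3 arrays, so they are not independent.

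Other genes of the pathway were counted from 3 lists, chosen by name with earlier results of these data known. Their counts stand beside the shares of all genes as description and carry no test. Of 14 measured core genes of interferon and STAT signalling besides the 9, Nmi, which encodes a protein that binds STATs, rose after IFNa by log2 1.78 ± 0.23 (adjusted p = 0.00223). Of the 14, 1 passed after IFNa, where 2.65% of all genes did. Nmi was 1.27 ± 0.28 higher after IFNg, which did not pass (adjusted p = 0.0725). No core gene passed the limma test after IFNg, where 1.35% of all genes did. Of the 14, 3 had an unadjusted p under 0.05 after IFNa and 4 after IFNg, as did 11.9% and 8.23% of all genes. The list median was 0.09 after IFNa and 0.31 after IFNg. Irf9, the partner of STAT2 in ISGF3 and named here after its values were seen, was higher by 0.88 ± 0.22 after IFNa (adjusted p = 0.0801) and by 0.79 ± 0.26 after IFNg (adjusted p = 0.372), with all treated arrays above all untreated ones. Without both narrow arrays Irf9 passed after IFNa, and no core gene passed after IFNg. Of all genes, 5.60% and 2.55% then passed after IFNa and IFNg.

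Of 20 inhibitors of JAK-STAT signalling, 3 rose and 2 fell after IFNa and 3 rose after IFNg, where 2.65% and 1.35% of all genes passed. Usp18, whose product displaces JAK1 from IFNAR2, rose by 4.67 ± 0.27 after IFNa and 2.40 ± 0.32 after IFNg, and was 2.27 ± 0.31 higher after IFNa than after IFNg (adjusted p = 0.00675). Socs1, which blocks JAK kinases, had mean intensities of 992 after IFNa and 2753 after IFNg, against 231 in untreated cells. Its intensity was 1679 on IFNa replicate 4 and 654 to 867 on the other IFNa arrays. Socs1 rose by 2.00 ± 0.27 after IFNa and by 3.58 ± 0.33 after IFNg (adjusted p = 0.00296 and 5.12e-04). The direct difference of -1.57 ± 0.31 did not pass (adjusted p = 0.0534). Socs2 rose by 2.64 ± 0.19 and 1.79 ± 0.23, though a further probe set for it gave 0.79 and 0.34. Pias3, a STAT3 inhibitor, differed by -0.92 ± 0.14 after IFNa (adjusted p = 0.00679), and Sh2b3, an adaptor that dampens cytokine receptors, by -0.55 ± 0.10 (adjusted p = 0.0219). The list median was 0.19 after IFNa and 0.27 after IFNg. Without both narrow arrays 4 of the inhibitors rose and 3 fell after IFNa, and 6 rose and 1 fell after IFNg, where 5.60% and 2.55% of all genes then passed. Between the treatments 2 inhibitors were then higher and 6 lower after IFNa, Socs1 among those that passed, where 2.74% of all genes passed. The calls of Usp18 between the treatments and after IFNg did not hold without either IFNg array (adjusted p up to 0.133 and 0.0967), nor that of Socs2 after IFNg without IFNg replicate 1 (0.0717), and that of Pias3 was lost without untreated replicate 2 (0.0529). The call of Sh2b3 held in 2 of the 9 such fits, those without IFNa replicate 4 or untreated replicate 1.

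Of 24 other receptor genes that signal through JAK kinases, 2 rose after IFNa and 5 after IFNg, and none fell, where 2.65% and 1.35% of all genes passed. Without both narrow arrays 2 rose and 1 fell after IFNa, 6 rose and 1 fell after IFNg, and 4 were lower after IFNa than after IFNg. Of all genes, 5.60%, 2.55% and 2.74% then passed in these comparisons. Il10ra, the ligand-binding chain for interleukin-10, rose by 1.02 ± 0.17 after IFNa and 1.20 ± 0.20 after IFNg (adjusted p = 0.0102 and 0.0186). Il15ra, which presents interleukin-15, rose by 1.87 ± 0.16 and 1.38 ± 0.20 (adjusted p = 1.44e-04 and 0.00774). Csf2rb, the shared chain of the GM-CSF receptor, rose after IFNg by 1.34 ± 0.16 (adjusted p = 0.00288) and differed by -0.01 ± 0.13 after IFNa. Csf2rb2, a close copy of it whose signal may not be fully separate, rose after IFNg by 1.58 ± 0.20 and differed by 0.03 ± 0.16 after IFNa. Il4ra, the interleukin-4 receptor chain, rose after IFNg by 1.30 ± 0.22 (adjusted p = 0.0196) and differed by 0.13 ± 0.19 after IFNa. Its intensity was 1366 on IFNa replicate 4 and 791 to 883 on the other IFNa arrays. In the direct comparison Csf2rb, Csf2rb2 and Il4ra were lower after IFNa than after IFNg (differences -1.35, -1.54 and -1.17, adjusted p = 0.00281, 0.00421 and 0.0323). The list median was -0.04 after IFNa and -0.02 after IFNg. Without IFNg replicate 1 none of the 5 calls after IFNg held (adjusted p = 0.0717 to 0.155), and those of Il4ra, Il10ra and Il15ra were also lost without IFNg replicate 2 (up to 0.244). Without untreated replicate 2 the calls of Il10ra and Il4ra after IFNg were lost, and Il4ra also lost its call without untreated replicate 1 and after quantile normalization (1.13, adjusted p = 0.108). The direct differences of Csf2rb and Csf2rb2 did not pass without IFNg replicate 1 (adjusted p = 0.077 and 0.0967), and that of Il4ra passed in 2 of the 9 fits with an array left out, those without IFNa replicate 4 or untreated replicate 1. Il4ra also missed the threshold between the treatments after quantile normalization (-1.08, adjusted p = 0.126) and with only those groups fitted (-1.17, adjusted p = 0.11).

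**Figure D3:**
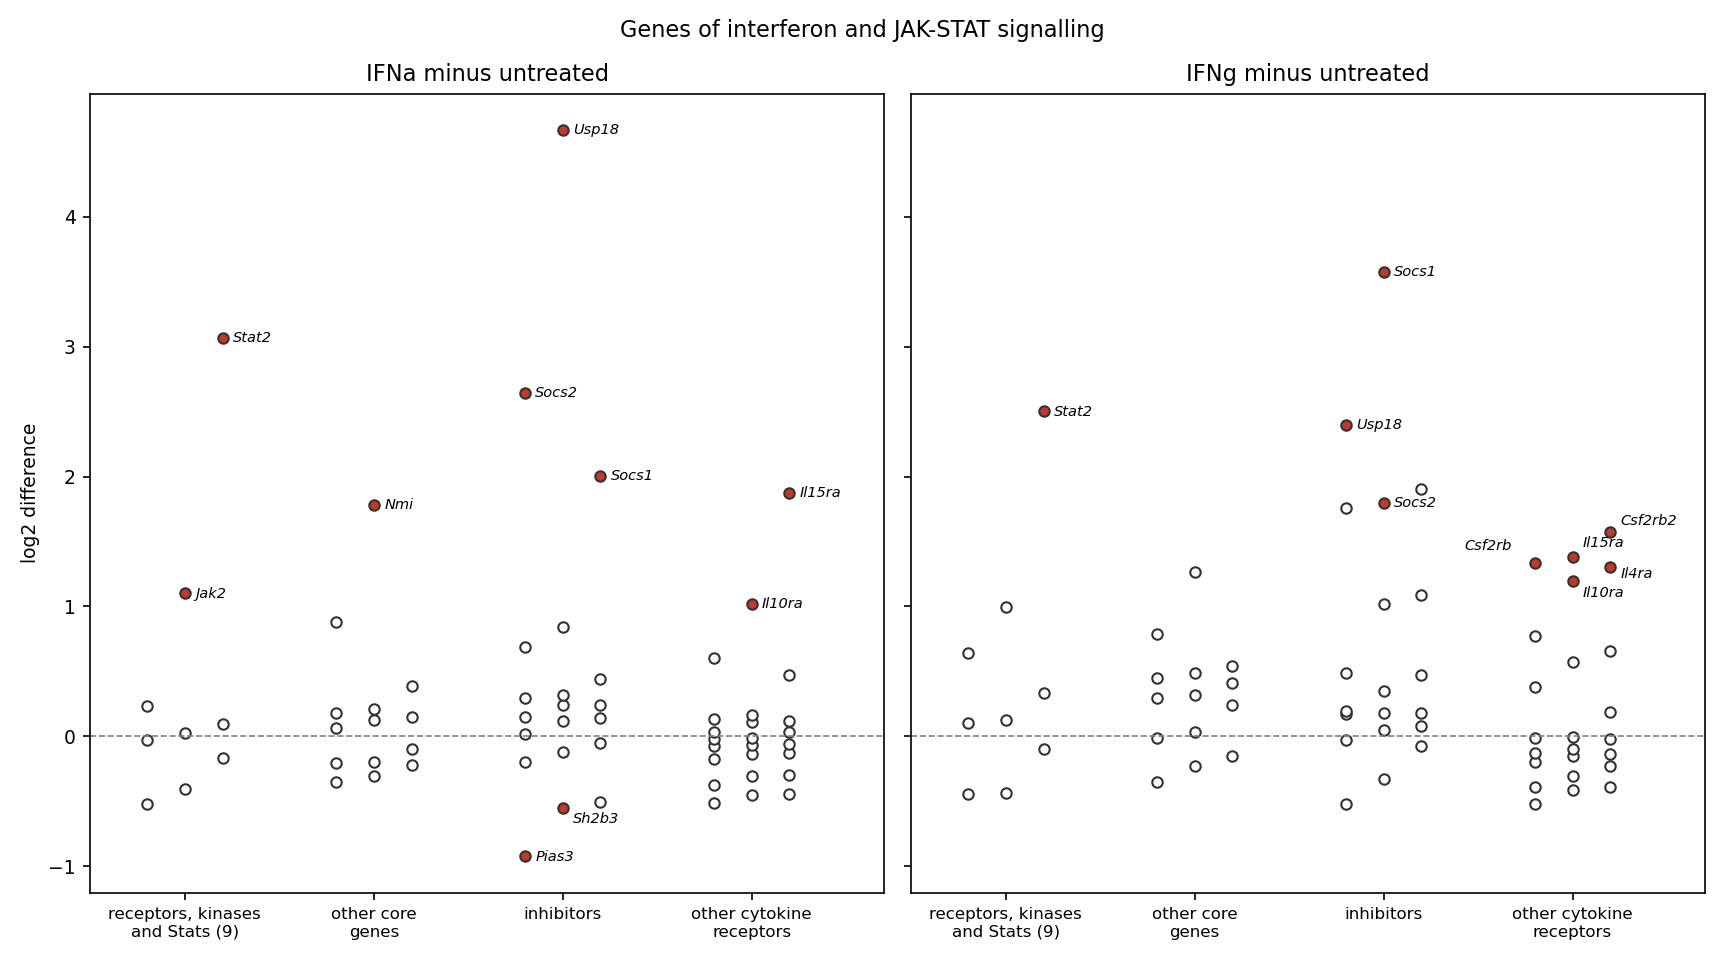
Log2 difference from untreated cells after IFNa (left) and IFNg (right) for the 9 genes, 14 other core genes, 20 inhibitors and 24 other cytokine receptors. Each point is 1 gene, and red, named points passed at an adjusted p under 0.05. Usp18 is the highest point after IFNa (4.67) and Socs1 after IFNg (3.58). Of the receptor and kinase genes among the 9, Ifnar1, Jak1 and Tyk2 lie between -0.17 and 0.12 in both panels. Ifngr1 and Ifngr2 lie between -0.52 and -0.41, Ifnar2 at 0.02 and 0.33, and Jak2 at 1.10 and 0.64.

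**Figure D4:**
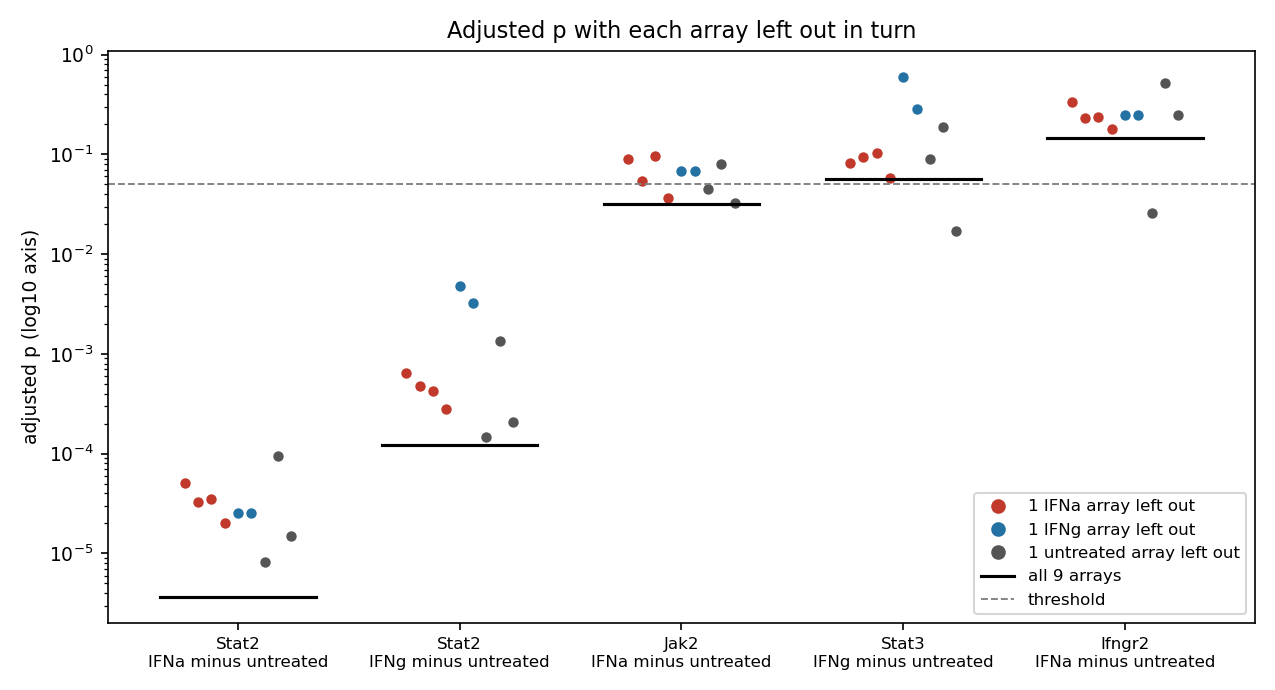
Adjusted p (log10 axis) of 5 gene comparisons with each array left out in turn (points, coloured by the group of the array) and with all 9 arrays (black lines); the dashed line is the threshold of 0.05. Stat2 stays below the threshold throughout, Jak2 after IFNa lies on both sides of it, and Stat3 after IFNg and Ifngr2 after IFNa fall below it without untreated replicate 3 and untreated replicate 1 in turn.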

How the data were processed

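Total RNA was isolated in TriZol, per the labels' protocols, and each sample was hybridised to 1 Affymetrix array. Per the submitters' processing notes, the authors used Affymetrix Power Tools and RMA, with no version given, and what they deposited is an RMA intensity for every probe set, on a linear rather than a log2 scale. Which arrays were normalized together is not given in the sources used here. Precision is limited by the number of arrays.

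All 24922 deposited values of each array were turned to log2. Probe sets with exactly 1 gene symbol in the platform table (21425) were kept (1399 had several and 2098 none), and the brightest stood for each of 19752 genes, with symbols updated through Entrez identifiers. No genome build is named for the array, so no gene coordinates are given from it. Using limma 3.58.1 (R 4.3.3), 1 mean per group was estimated from the 9 arrays together, with 6 residual and 3.62 prior degrees of freedom and two-sided tests, so the IFNg pair shares the spread of the other groups. The fit was tested on simulated data.

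The 9 genes, the lists and the settings tried were chosen with earlier results of these data known. Named from the lists were genes that passed in a comparison (at most 5 per list and comparison); likeness and neighbours were taken for the genes of the 9 that passed against untreated. Of the list entries, 3 of 17 core list entries and 3 of 27 receptor entries had no probe set of their own and were not analysed here. Other settings were quantile normalization, median centring, no dim genes, a variance trend, robust variances, only the groups compared, replicate blocks, all probe sets, stricter thresholds and leaving out arrays. Python 3.11.15 and pandas 2.3.3 were also used.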

Additional observations from a re-analysis of the deposited data

Results flagged for a closer look

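Ifngr1 in IFNa replicate 4 stood apart from its group, at an intensity of 1138.5 against 1768 to 1910.1 on the other 3 IFNa arrays. On the log2 scale, the gap to the nearest array divided by the range of the group was 0.851, which exceeded the 95% critical value of Dixon's test for 4 samples. On the linear scale of the intensities the ratio was 0.816, which did not. This was 1 of 9 genes tested in the IFNa group, and chance flags about 1 in 20 groups. IFNa replicate 4 is 1 of the 2 arrays of narrow intensity range, whose part in this value was not tested. Without it Ifngr1 differed from untreated by -0.24 on the log2 scale, against -0.41 with it, and did not pass either way.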

How the results depend on the processing

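Of 540 values of the 9 genes under other settings, 487 kept their direction and their side of the threshold, 33 changed sign, 11 passed where they had not and 9 no longer passed. Stat2 against untreated passed under every setting tried, except that array weights could not be used: their estimate did not converge and gave untreated replicate 2 a weight of 140.6. The cause of the changes below was not tested unless the setting itself gives it.

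Of the 9 genes, 2 passed after IFNa, 1 after IFNg and 0 between the treatments. After IFNa the number was 1 with median centring (Jak2 1.13, adjusted p = 0.0525), with only the groups compared (Jak2 1.10, adjusted p = 0.0677) and at an adjusted p under 0.01, and it ranged from 1 to 3 with an array left out. Without both narrow arrays and after quantile normalization Ifngr2 also passed after IFNa. After IFNg the number was 3 after quantile normalization and 2 without the dimmest 30% of genes (Stat3 0.99, adjusted p = 0.0418). It was also 2 without both narrow arrays and without untreated replicate 3. Between the treatments it was 1 after quantile normalization and 2 without both narrow arrays. Without both narrow arrays more of all genes passed too: 5.60% after IFNa, 2.55% after IFNg and 2.74% between the treatments. On all 9 arrays these shares were 2.65%, 1.35% and 0.977%.

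Quantile normalization gave calls to Ifngr2 after IFNa (-0.65) and IFNg (-0.65), Stat3 after IFNg (0.82) and Stat2 between treatments (0.66). It turned Ifnar1 after IFNg to -0.066, Ifnar2 after IFNa to -0.063, Jak1 to -0.042 after IFNa and -0.12 after IFNg, and, between treatments, Ifngr2 to 0.0032, Jak1 to 0.078 and Tyk2 to 0.087. Median centring turned Ifnar1 after IFNa to 0.0029. Leaving out both narrow arrays gave calls to Ifngr2 after IFNa (-0.68), Stat3 after IFNg (0.81) and, between treatments, Stat2 (0.57) and Stat3 (-0.76), and turned Ifnar2 after IFNa to -0.0093 and Jak1 to -0.12 after IFNa and -0.11 after IFNg. None of the values that changed sign had passed.

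With an array left out, differences after IFNa ranged from -0.12 to 0.080 for Ifnar1, -0.061 to 0.086 for Ifnar2, -0.69 to -0.40 for Ifngr2, -0.12 to 0.26 for Jak1 and 0.82 to 1.27 for Jak2. Those after IFNg ranged from -0.11 to 0.27 for Jak1, -0.20 to 0.0061 for Tyk2 and 0.81 to 1.17 for Stat3. Between treatments they ranged from -0.14 to 0.21 for Ifngr1, -0.027 to 0.0077 for Jak1 and -0.18 to 0.032 for Tyk2. Where 1 IFNg array was left, it was assumed to vary like the other groups.

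Deviations of samples with the same title number correlated over genes at -0.21 to 0.60 for 7 pairs, highest for IFNa replicate 3 and untreated replicate 3. IFNa replicate 4 and untreated replicate 1, of unlike number, reached 0.61. IFNa replicate 2 correlated more with untreated replicate 3, at 0.41, than with untreated replicate 2, at 0.17. These values do not settle whether the numbers mark pairs, and the numbers were not taken as pairs. As a replicate block the title numbers turned Ifnar1 after IFNa to 0.029, and the description numbers turned Ifnar1 to 0.15 after IFNa, Jak1 after IFNg to -0.012 and, between treatments, Ifnar1 to 0.10, Ifngr2 to 0.18, Jak1 to 0.27 and Tyk2 to 0.074, without changing a call of the 9 genes. Of the other named genes, Csf2rb lost its call between treatments with the description block (-1.23, adjusted p = 0.0509).

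The number of all genes that passed was 523 after IFNa, 267 after IFNg and 193 between treatments. It was 278, 131 and 90 at an adjusted p under 0.01 and 1106, 503 and 542 without both narrow arrays. For IFNa it was 293 at 2-fold or more, 921 after quantile normalization, and 827 and 924 with the title and description blocks. For IFNg it was 119 with only the groups compared and 699 with the title block. With an array left out the numbers were 288 to 600, 80 to 391 and 42 to 276. After quantile normalization, higher genes made up 54.3% of those that passed after IFNa, against 67.7%, 77.5% after IFNg, against 91.8%, and 58.0% between treatments, against 45.1%.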

Other observations

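Further genes of the STAT pathway had sizeable differences that did not pass the test, and are given as values chosen after they were seen. The inhibitors Cish and Socs3, both known to be induced by STAT proteins, were higher after IFNg by log2 1.91 ± 0.39 (adjusted p = 0.0503) and 1.76 ± 0.38 (0.0664). After IFNa they were higher by 0.84 ± 0.32 and 0.69 ± 0.32 (adjusted p = 0.307 and 0.445). These IFNa means lean on IFNa replicate 4. There Cish had an intensity of 395, against 127 to 204 on the other IFNa arrays and 394 and 443 on the IFNg arrays. Socs3 had 1971 there, against 797 to 877 on the other IFNa arrays and 1823 and 2605 on the IFNg arrays. Why this array differed was not tested. Stat5a and Stat5b, neighbouring genes for STATs of growth factor receptors, were lower after IFNa than after IFNg by 0.62 ± 0.13 (difference -0.62, adjusted p = 0.0712) and 0.64 ± 0.22 (difference -0.64, adjusted p = 0.439), with all IFNa arrays below both IFNg arrays. Without both narrow arrays Cish and Socs3 passed after IFNg, and Stat5a and Stat5b between the treatments.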
